A study of Mus musculus with 6 samples.

Results

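Heat shock chaperones are proteins that keep other proteins folded, and 10 of their genes were followed here in macrophages taken from tumours: Hspa1a, Hspa1b, Hspa8, Dnajb1, Hsph1, Hsp90aa1, Hsp90ab1, Hspb1, Hspe1 and Hspd1. They were picked by symbol from the 21760 symbols of the count table, as a set of inducible and constitutive chaperones, and all 10 passed the filter on low counts. The set was drawn up because Hspa1a and Hspa1b were already known to be low in the libraries of one knockout clone relative to WT. The values of that contrast are therefore given as a description, with no test. The contrasts of clone 1 with WT, of clone 2 with clone 1 and of all KO with WT share libraries with it and are not independent of that choice.

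Macrophages had been isolated by fluorescence-activated sorting from subcutaneous tumours of MC38, a colon carcinoma line, carried by C57BL6 mice for 16 days. There were 3 groups of 2 libraries, each library from 1 mouse: tumours with the Xkr8 knockout (KO) of clone 1, tumours with the KO of clone 2, and wild type (WT) tumours, none of them treated further. Xkr8 encodes a scramblase that exposes phosphatidylserine on cells undergoing apoptosis. The knockout is a property of the tumour, so Xkr8 levels in macrophages do not check the labels. Xkr8 was measured at 4.7 and 4.14 CPM (counts scaled to the library size) in clone 1, 6.97 and 6.16 CPM in clone 2, and 6.9 and 6.05 CPM in WT. Each arm of the knockout is 1 clone, and neither the age and sex of the mice nor the gating markers of the sort are stated in the labels. With 2 mice a group, p-values measure the spread between these libraries.

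Libraries held 37090034 to 40022755 counts, except WT mouse 2 with 20038047. In that library the ribosomal RNA gene Rn45s took 24.6% of counts, against 1.46% to 7.12% in the other libraries. Levels are CPM computed from the deposited counts, scaled by the trimmed mean of M values (TMM). All 10 macrophage markers looked for were present, with summed levels of 11474 and 10143 CPM in clone 1, 12058 and 11755 CPM in clone 2, and 9502 and 12447 CPM in WT. Csf1r, the receptor that macrophages need to survive, was at 1059 to 1302 CPM in the KO libraries and at 1114 and 1633 CPM in the WT libraries. Higher in KO with no overlap (12.9% of all genes) were Adgre1 (767 to 966 CPM in KO, 667 and 528 CPM in WT), Lyz2 (2429.7 to 3336 CPM in KO, 1999 and 1608 CPM in WT) and Fcgr1 (444 to 483 CPM in KO, 267 and 284 CPM in WT). In KO over WT, 5 of the 10 markers had a log2 fold change above 0. Of the 10, 0 passed by edgeR (0.135% of all genes), and DESeq2 called 1, Fcgr1 (3.21%). Markers of other cells differed between libraries. The summed level of 10 fibroblast markers was 2523 to 3957 CPM in the KO libraries, against 4207 CPM in WT mouse 1 and 12075 CPM in WT mouse 2, most of it Col3a1, which was at 1837 to 3215 CPM in the KO libraries and at 3634 and 11320.2 CPM in WT. Other fibroblast markers were higher in KO, such as Thy1 (7.45 to 15.3 CPM in KO, 1.69 and 3.71 CPM in WT) and Dcn (286 to 470.4 CPM in KO, 255 and 127 CPM in WT), and 6 of the 10 had a log2 fold change above 0 in KO over WT. Endothelial markers summed to 48 to 61.7 CPM in the KO libraries and 23.4 and 31.4 CPM in WT. The largest part was Pecam1 (33.9 to 42.9 CPM in KO, 13 and 14.9 CPM in WT). Neutrophil markers summed to 56.3 to 74.7 CPM in the KO libraries and 40.1 and 38.9 CPM in WT. The largest part was Csf3r (44.8 to 61.6 CPM in KO, 26.3 and 25.9 CPM in WT), and S100a8, S100a9, Ly6g and Retnlg were under 1 CPM in every library. In KO over WT, 4 of 5 endothelial and 6 of 7 neutrophil markers tested were above 0, while Vwf (-0.92) and Cxcr2 (-0.71) were below. Of all genes, 49.8% were below 0 in that contrast. By edgeR 0 markers of either list passed (0.135% of all genes). DESeq2 called 1 endothelial and 3 neutrophil markers, all higher (3.21% of all genes). The 8 T and NK cell markers in the test summed to 78.1 to 124 CPM in the KO libraries and to 18.4 and 27.9 CPM in the WT libraries. Of these markers, 3 rose in KO over WT by edgeR (0.135% of all genes called), 5 by DESeq2 (3.21%) and 1 by limma-voom (0.103%). Of the epithelial or tumour markers, Krt8, Krt18, Cldn4 and Cldn7 were each at 0 in at least 1 library. The summed level of that list was 11.1 to 12.9 CPM in the KO libraries and 15.7 and 44.1 CPM in the WT libraries. Nearly all of it was Cdh1, at 10.5 to 12.3 CPM in KO and 15.1 and 43.1 CPM in WT, and 5 other markers were under 1 CPM in every library. The part of these cells in the chaperone levels was not tested. In bulk RNA, fewer cells of a type and less RNA per cell cannot be told apart.

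The heat shock response is driven by heat shock factors, chiefly Hsf1, which bind repeats of the letters GAA and their reverse complement in promoters and switch on chaperone genes when unfolded protein accumulates. Hsp70 proteins bind exposed stretches of client proteins in a cycle of ATP use. J-domain proteins such as Dnajb1 bring clients and start that cycle, and Hsp110 proteins such as Hsph1 release the nucleotide so that it can start again. Hsp90 proteins finish the folding of kinases and receptors, small heat shock proteins such as Hspb1 hold unfolded chains without using ATP, and Hspd1 with its lid Hspe1 folds proteins inside mitochondria. In macrophages taken from tissue, chaperone and immediate early genes are also known to be switched on while the tissue is dissociated.

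The strictly inducible pair Hspa1a and Hspa1b and the small chaperone gene Hspb1 are the members that differ most over the libraries, so the stretches before their starts are shown first, with that of Hspe1 as the longest repeat of heat shock letters found. The sequences come from RefSeq on build GRCm38.p6, are written 5′ to 3′ on the strand of the gene, and capitals mark the match to a heat shock motif. The windows are chr17:34972157-34972406 (minus strand) for Hspa1a, chr17:34959239-34959488 (minus strand) for Hspa1b and chr5:135887669-135887918 (plus strand) for Hspb1, each holding the 250 bases before the start. For Hspe1 only the 28 bases at chr1:55088054-55088081 (plus strand) are printed, since that window lies in annotated exons of Hspd1 and Hspe1.
Hspa1a: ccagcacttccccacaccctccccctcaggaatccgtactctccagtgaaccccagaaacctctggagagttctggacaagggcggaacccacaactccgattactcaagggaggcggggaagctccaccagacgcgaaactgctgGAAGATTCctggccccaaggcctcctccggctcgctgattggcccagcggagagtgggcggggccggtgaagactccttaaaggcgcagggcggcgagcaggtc
Hspa1b: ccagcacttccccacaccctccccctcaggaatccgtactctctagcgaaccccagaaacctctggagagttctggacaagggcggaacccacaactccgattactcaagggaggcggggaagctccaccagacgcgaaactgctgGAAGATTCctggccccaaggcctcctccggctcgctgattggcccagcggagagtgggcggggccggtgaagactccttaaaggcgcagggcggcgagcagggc
Hspb1: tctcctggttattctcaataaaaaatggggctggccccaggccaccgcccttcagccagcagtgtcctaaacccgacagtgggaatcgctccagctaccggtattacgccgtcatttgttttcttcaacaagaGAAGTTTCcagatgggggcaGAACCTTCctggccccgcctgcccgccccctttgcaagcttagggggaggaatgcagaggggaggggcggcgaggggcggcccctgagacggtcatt
Hspe1: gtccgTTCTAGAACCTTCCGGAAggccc

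The 2 upper windows differ at 3 of 250 positions, C44T, T47C and T249G, with the Hspa1a base first and positions counted from 1 at the 5′ end. The motif searched as 2 units was GAANNTTC or TTCNNGAA, and a match of 3 units adds a further GAA or TTC unit, in alternation, after 2 more bases. Every form was read on both strands, and a match of 3 units contains matches of 2. Hspa1a and Hspa1b both carry GAAGATTC from -104 to -97 before the start. Hspb1 carries GAAGTTTC from -117 to -110 and GAACCTTC from -97 to -90. In Hspe1 the matches overlap into a single stretch from -89 to -72, and Hspd1, which starts nearby on the other strand, holds the same stretch read the other way. Of the 7 members that matched an entry in the promoter table, 6 held a match of 2 units and 2 (Hspe1 and Hspd1) a match of 3 units, against 12.8% and 0.466% of all 32851 windows. Hspa8, Hsp90aa1 and Hsp90ab1 have no entry. A match is a description of letters, and no match was found in the windows of Dnajb1.

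The genes lie apart on the genome except for 2 close pairs (GRCm38, GENCODE M21). Hspa1a (chr17:34969190-34972156) and Hspa1b (chr17:34956436-34959238) both lie on the minus strand of chromosome 17. Hspd1 (chr1:55077835-55088243, minus strand) and Hspe1 (chr1:55088132-55091307, plus strand) overlap at their starts on chromosome 1. Aligned over 2735 bases, the transcripts of Hspa1a and Hspa1b were identical at 2560 (93.6%), and 63.8% of the 31-base stretches of Hspa1a occur in Hspa1b. How the authors' counting divided such reads is not stated, so the 2 genes are uncertain one by one and are also given as a sum. The transcript of Hspa8, the constitutive Hsp70, aligned to Hspa1a with 74.6% identity and shared none of those stretches, so the pair and Hspa8 can be told apart. Stretches of Hspa8 (79.7%), Hsp90aa1 (62.9%), Hspe1 (59.1%), Hspb1 (58.4%) and Hspd1 (55.8%) also occur in other annotated genes, and for each of these members the gene that shares most is not among the symbols of the table.

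**Figure D1:**
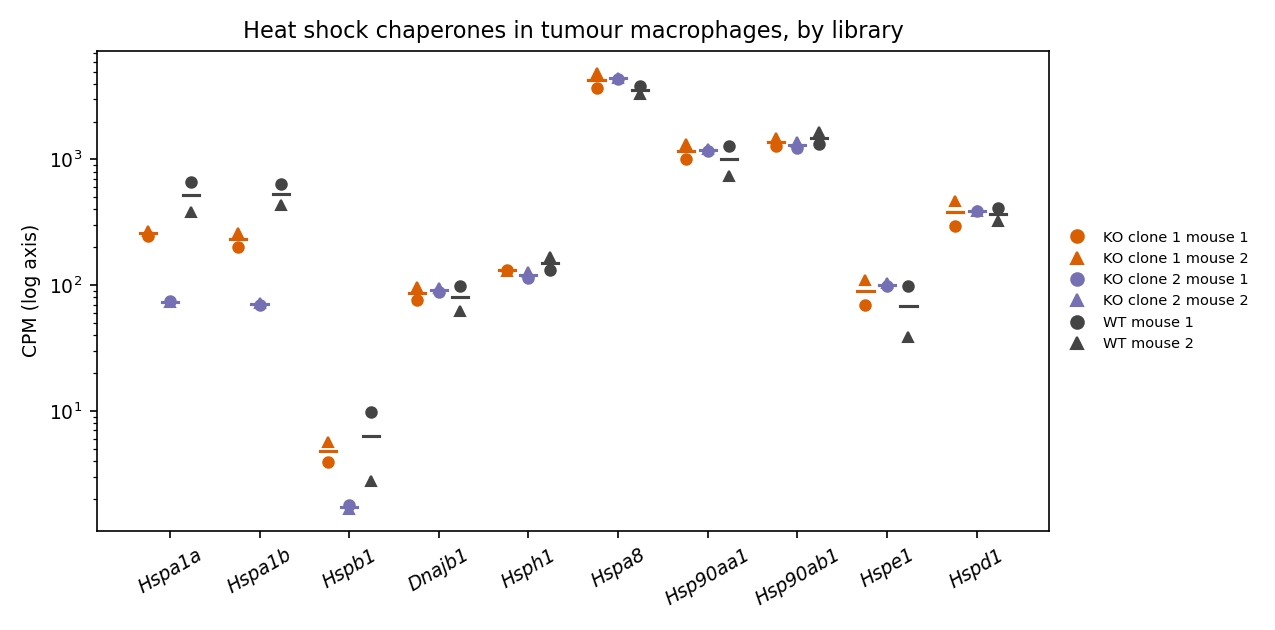
Level of each of the 10 chaperone genes in each library, in CPM on a log axis, for KO clone 1, KO clone 2 and WT tumours (circle, mouse 1; triangle, mouse 2; short line, group mean). Hspa1a and Hspa1b sit at 247 and 270.1 CPM and at 203 and 261 CPM in clone 1, at 69.7 to 74.9 CPM in clone 2 and at 384 CPM or more in WT, while the abundant constitutive genes lie close together.

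Hspa1a, an inducible Hsp70 that is nearly silent in unstressed cells, stood at 247 and 270.1 CPM in clone 1, 74.9 and 72.9 CPM in clone 2, and 662 and 384 CPM in WT. Hspa1b, its near-copy, stood at 203 and 261 CPM in clone 1, 69.7 and 72.6 CPM in clone 2, and 633 and 434 CPM in WT. For both genes every clone 2 library was below every clone 1 library, and every clone 1 library was below both WT libraries. With no overlap between groups, this order held for 3 of the 10 members (the third being Hsph1), against 3.2% of all genes tested. Clone 2 below WT is the trait for which Hspa1a and Hspa1b were chosen. Their sum was 449.9 and 532 CPM in clone 1 (491 ± 57.7, SD, n = 2), 145 and 146 CPM in clone 2 (145 ± 0.613), and 1295 and 819 CPM in WT (1057 ± 336). The highest library thus held 8.95 times the sum of the lowest. These levels rest on 2742 to 30131 counts per gene and library. The fraction of the sum assigned to Hspa1a was 54.9% and 50.8% in clone 1, 51.8% and 50.1% in clone 2, and 51.1% and 46.9% in WT, so the split moved little while the sum moved a great deal.

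The log2 fold change of the sum was -2.86 ± 0.302 (SE) for clone 2 over WT, a description that carries no test here. In clone 1 against WT its log2 fold change was -1.11 ± 0.285, with an adjusted p of 0.412 by edgeR's quasi-likelihood test with Benjamini-Hochberg adjustment over all genes. Between the clones, clone 2 over clone 1, it was -1.76 ± 0.29, with an adjusted p of 0.317 by the same edgeR test. For all 4 KO libraries over WT it was -1.73 ± 0.556, with an adjusted p of 0.298 by edgeR. No contrast with a test passed the 0.05 threshold by edgeR. All 4 KO libraries lay below both WT libraries, as they did for 10.7% of all genes. The call depended on the WT pair. Without WT mouse 1 the sum passed in clone 1 over WT (-0.73, edgeR adjusted p of 0.0155), where 34.5% of all genes then passed, and in clone 2 over clone 1 (-1.76, edgeR adjusted p of 0.0122), where 0.486% did. Without WT mouse 2 it passed in clone 1 over WT (-1.43, edgeR adjusted p of 0.0346) with 0.361% of all genes, and in clone 2 over clone 1 (-1.75, edgeR adjusted p of 0.0119) with 0.541%. With 1 WT library left, the difference between the WT mice no longer enters the estimated spread. By DESeq2 the adjusted p of the sum was 0.028 for clone 1 over WT, 2.36e-05 for clone 2 over clone 1 and 0.0456 for KO over WT.

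Hspb1, whose small protein holds unfolded chains, was the other member with a wide range but at a far lower level, with 40 to 446 counts a library. It stood at 3.95 and 5.68 CPM in clone 1, 1.78 and 1.66 CPM in clone 2, and 9.8 and 2.75 CPM in WT. Both clone 2 libraries were below the others, whereas the clone 1 libraries lay between the 2 WT libraries. The log2 fold change was -1.89 ± 0.592 for clone 2 over WT and -0.41 ± 0.567 for clone 1 over WT (edgeR adjusted p of 0.794). Without WT mouse 1, the library with the highest level, these values were -0.66 for clone 2 and 0.82 for clone 1; without WT mouse 2 they were -2.53 and -1.05. Clone 2 over clone 1 gave -1.48 ± 0.586 (edgeR adjusted p of 1).

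The co-chaperones that work with Hsp70 showed no such range. Dnajb1, the J-domain partner, was at 75.9 and 96.8 CPM in clone 1, 89 and 95.8 CPM in clone 2, and 98.3 and 62.3 CPM in WT. The groups overlapped, and the log2 fold changes were 0.10 ± 0.278 for clone 1 over WT and 0.20 ± 0.278 for clone 2 over WT. Hsph1, the Hsp110 that recharges Hsp70, was at 131 and 129.9 CPM in clone 1, 115 and 127 CPM in clone 2, and 133 and 169 CPM in WT. Its order in CPM was that of the Hspa1 pair, with no overlap between any groups, as for 3.2% of all genes tested. The steps were small, at -0.21 ± 0.215 for clone 1 over WT (edgeR adjusted p of 0.746). They were -0.32 ± 0.216 for clone 2 over WT and -0.11 for clone 2 over clone 1. As a percent of Hspa8 counts within a library, Hsph1 did not keep this order. It was 3.52% and 2.65% in clone 1, 2.63% and 2.84% in clone 2, and 3.44% and 5.08% in WT.

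The abundant cytosolic chaperones Hspa8, Hsp90aa1 and Hsp90ab1 varied less than the pair. Their highest library stood at 1.47, 1.8 and 1.33 times the lowest, in that order. Hspa8, the Hsp70 that every cell uses, was at 3731 and 4907 CPM in clone 1, 4381 and 4467 CPM in clone 2, and 3867 and 3331 CPM in WT. Both clone 2 libraries were above both WT libraries, as for 26.5% of all genes, with a log2 fold change of 0.30 ± 0.27. For clone 1 over WT, where the libraries overlapped, it was 0.26 ± 0.27 (edgeR adjusted p of 0.747). Hsp90aa1, the stress-responsive Hsp90, was at 1006 and 1332 CPM in clone 1, 1159 and 1201 CPM in clone 2, and 1268 and 738 CPM in WT. Hsp90ab1, the constitutive Hsp90, was at 1282 and 1474 CPM in clone 1, 1243 and 1371 CPM in clone 2, and 1315 and 1658 CPM in WT. Neither Hsp90 gene separated any groups, with log2 fold changes of 0.22 ± 0.324 and -0.11 ± 0.247 for clone 1 over WT and 0.01 and -0.08 for clone 2 over clone 1.

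The mitochondrial chaperonin genes showed no steady order either. Hspd1, the barrel, was at 296 and 465 CPM in clone 1, 388 and 389 CPM in clone 2, and 409 and 323 CPM in WT. Hspe1, its lid, was at 70.2 and 109 CPM in clone 1, 98 and 104 CPM in clone 2, and 98 and 38.9 CPM in WT, and the lowest of these was WT mouse 2. Their groups overlapped in each contrast with WT, with log2 fold changes of 0.06 ± 0.284 for Hspd1 and 0.38 ± 0.442 for Hspe1 in clone 1 over WT. The widest ratios of the highest to the lowest library were 9.08 for Hspa1a, 9.07 for Hspa1b and 5.9 for Hspb1, then 2.79 for Hspe1, and 1.33 to 1.8 for the other 6.

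**Figure D2:**
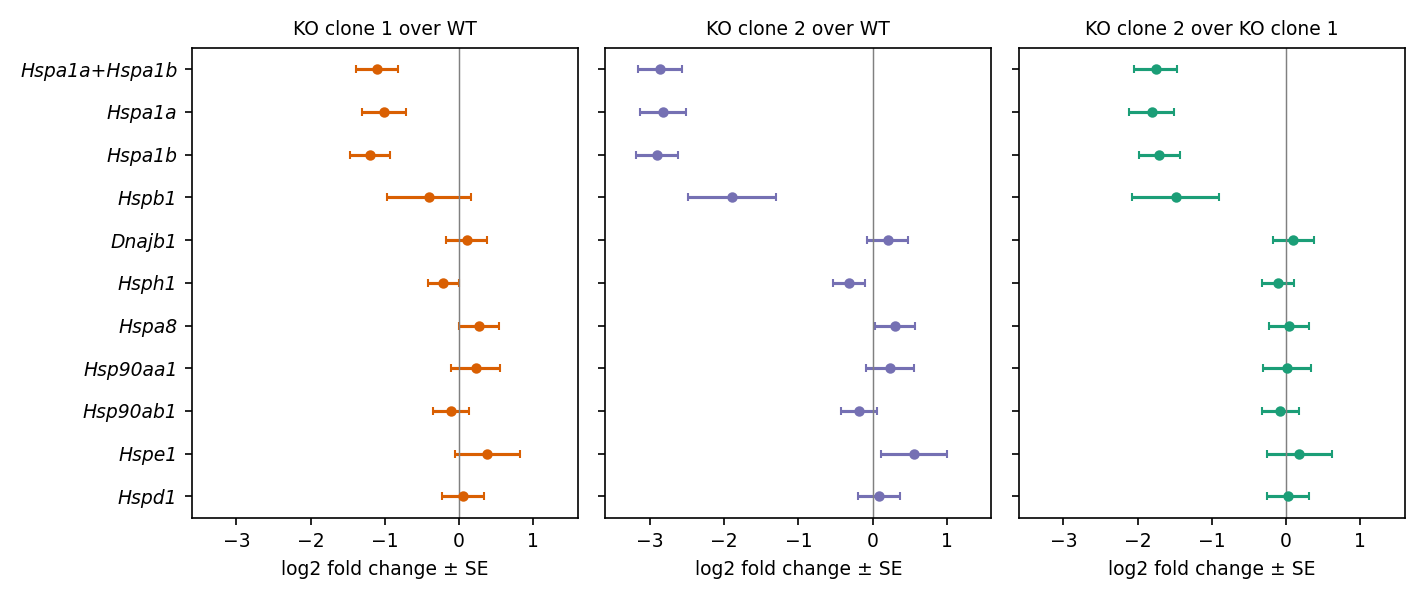
Log2 fold change with its standard error (edgeR) for the sum of Hspa1a and Hspa1b and for each gene, in KO clone 1 over WT, KO clone 2 over WT and KO clone 2 over KO clone 1. The Hspa1 genes and Hspb1 lie left of 0 in all 3 panels, and the sum is at -1.11, -2.86 and -1.76, while the other genes lie within 0.56 of 0.

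Counted over the set, none of the 10 members passed an adjusted p of 0.05 by edgeR in clone 1 over WT, where 0.00643% of 15560 genes did. At an unadjusted p under 0.05, 2 members passed, Hspa1a and Hspa1b and both lower, against 2.85% of all genes lower; DESeq2 called 1 member, Hspa1b (1.74% of all genes), and limma-voom 0. In clone 2 over WT, 0 members passed by edgeR (0.00643% of all genes) and 3 were lower at an unadjusted p under 0.05 (6.17% of all genes); since that contrast guided the choice, nothing is read from these counts. In clone 2 over clone 1, again 0 members passed (0% of genes), 3 passed unadjusted and all lower (1.91% of genes lower), DESeq2 called 2, Hspa1a and Hspa1b (0.752% of genes), and limma-voom 0. In KO over WT, 0 members passed against 0.135% of genes, 2 passed unadjusted, both lower (7.38% of genes lower), DESeq2 called 1, Hspa1b (3.21% of genes), and limma-voom 0. Lower with no overlap between groups were 3 members in clone 1 over WT (15.1% of genes), 4 in clone 2 over WT (25.3%), 4 in clone 2 over clone 1 (22.7%) and 3 in KO over WT (10.7%). Higher with no overlap was 1 member, Hspa8, in clone 2 over WT (26.5% of genes), and 0 in clone 1 over WT (17.4%), clone 2 over clone 1 (21.8%) and KO over WT (12.9%). The median log2 fold change of the 10 members was -0.03 in clone 1 over WT and -0.05 in clone 2 over WT, against 0.02 and -0.03 over all genes, and 5 of 10 members were below 0 in each (48.8% and 51.7% of all genes). In clone 2 over clone 1 and in KO over WT, 5 of 10 were likewise below 0 (53% and 49.8% of all genes). The median of the set was thus close to that of all genes, and the values far from 0 were those of the Hspa1 pair and Hspb1. Hspa1a and Hspa1b do not count as 2 separate signals here, since the division of reads between them is uncertain. The other contrasts share libraries with clone 2 over WT, so their counts are not independent of the choice of the set.

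Per kilobase of transcript, so that genes can be compared with each other, Hspa8 stood above Hsp90ab1 and Hsp90ab1 above Hsp90aa1 in all 3 group means, and Hspb1 was lowest. Hspa8 averaged 1804 ± 347 CPM per kb in clone 1, 1848 ± 25.4 in clone 2 and 1503 ± 158 in WT. The Hspa1 genes changed place. Hspa1a averaged 87.2 ± 5.48 CPM per kb in clone 1, 24.9 ± 0.486 in clone 2 and 176 ± 66.1 in WT. Hspa1b averaged 82.8 ± 14.8 CPM per kb in clone 1, 25.4 ± 0.733 in clone 2 and 190.4 ± 50 in WT. In WT both means stood above that of Hspd1 (151 ± 25 CPM per kb) by less than their own SD, and above that of Hspe1 (88.5 ± 54) by more than the SD of either gene. In clone 2 they stood below Hsph1 (31.8 ± 2.15) and Dnajb1 (30.8 ± 1.61), and the library values did not overlap.

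Ratios of counts within a library do not depend on how libraries are scaled. The sum of Hspa1a and Hspa1b was 12.1% and 10.8% of Hspa8 counts in clone 1, 3.3% and 3.26% in clone 2, and 33.5% and 24.6% in WT. Against Hsp90aa1 it was 44.7% and 39.9% in clone 1, 12.5% and 12.1% in clone 2, and 102% and 111% in WT. Against Dnajb1, which shares the heat shock response with it, the sum was 593% and 549% in clone 1, 163% and 152% in clone 2, and 1318% and 1315% in WT. The 2 WT mice lay closer to each other there than in CPM. Over Hsph1 (973% and 484%) and Hsp90ab1 (98.4% and 49.4%) the WT mice lay further apart than in CPM, and over Hspe1 (1321% and 2103%) no closer. With each of 7 other members as the denominator (all but Hspb1), both clone 2 libraries were below both clone 1 libraries, and both clone 1 libraries below both WT libraries. The mean ratio in WT was 6.06 to 11.9 times that in clone 2 and 1.94 to 3.03 times that in clone 1 over these denominators. Of all counts of the 10 members, the pair took 6.39% and 5.87% in clone 1, 1.9% and 1.84% in clone 2, and 15.2% and 11.5% in WT. The other 8 members together were at 6597 and 8519 CPM in clone 1, 7475 and 7757 CPM in clone 2, and 7198 and 6324 CPM in WT, with overlap between clone 1 and WT.

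**Figure D3:**
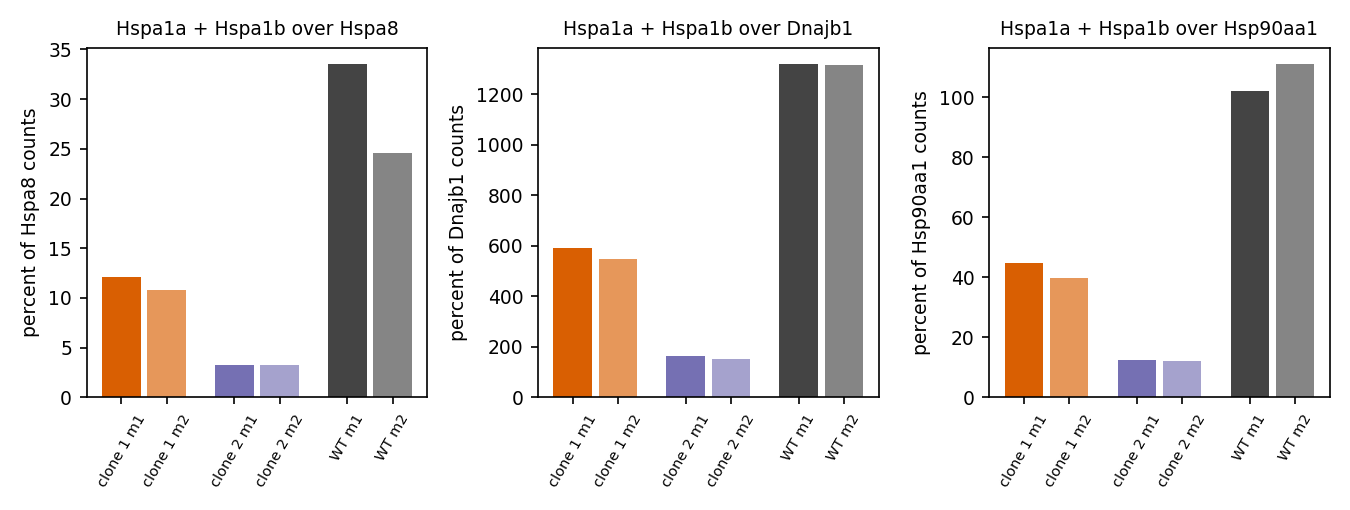
Counts of Hspa1a plus Hspa1b as a percent of the counts of Hspa8, Dnajb1 and Hsp90aa1 in each library (bars from 0; m1 and m2 are the mice). In each panel both clone 2 bars are lowest, both clone 1 bars next and both WT bars highest, as in 3.3% and 3.26%, 12.1% and 10.8%, and 33.5% and 24.6% of Hspa8.

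Hsf1, the main activator of the response, varied little. It was at 28.5 and 31.9 CPM in clone 1, 27.1 and 31.3 CPM in clone 2, and 29.7 and 27.9 CPM in WT. Hsf2, a related factor, was at 21.7 to 24.6 CPM in the KO libraries, against 23.6 CPM in WT mouse 1 and 11.5 CPM in WT mouse 2. Of 6 factors and regulators listed, 5 were tested, and 0 passed an adjusted p of 0.05 by edgeR in any of the 4 contrasts, with 1 lower in KO over WT at an unadjusted p under 0.05 (7.38% of all genes); DESeq2 and limma-voom called 0 as well. That 1 was Hsf4, a further factor of the family, at 2.42 and 3.05 CPM in clone 1, 2.03 and 2.5 CPM in clone 2, and 3.05 and 5.92 CPM in WT (-0.82 ± 0.336, adjusted p by edgeR of 0.352). Factor activity is set by protein changes that RNA levels do not show.

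Among the other chaperones, few had the order of the pair. Both clone 2 libraries were below both clone 1 libraries, and those below both WT libraries, for 2 of 32 other cytosolic chaperones and co-chaperones (Hspb6 and Bag3) and for 1 of 10 mitochondrial ones (Lonp1), against 3.2% of all genes tested. In clone 2 over WT, 0 of 32 other cytosolic chaperones and co-chaperones passed by edgeR, with 2 higher and 3 lower at an unadjusted p under 0.05 (5.12% and 6.17% of all genes) and 0 by DESeq2 or limma-voom. Their median log2 fold change was 0.23, against -0.03 over all genes, and 10 of 32 were below 0, against 51.7% of all genes. Cryab, a small heat shock protein, had a log2 fold change of 1.80 ± 0.491 at 0.55 to 2.74 CPM, and Hspa4l, an Hsp110 relative, of 0.94 ± 0.311 (adjusted p by edgeR of 0.311 and 0.39). Hspa4l was at 75.4 and 88.6 CPM in clone 1, 126 and 130.1 CPM in clone 2, and 86.1 and 47.3 CPM in WT, and WT mouse 2 was the lowest library. Bag3, a co-chaperone that heat shock also induces, was at 35.8 and 36.9 CPM in clone 1, 29.6 and 32.1 CPM in clone 2, and 37.1 and 76.6 CPM in WT, with a log2 fold change of -0.88 ± 0.35 for clone 2 over WT. The small heat shock protein gene Hspb6, expressed at a low level, was at 1.07 and 0.938 CPM in clone 1, 0.916 and 0.842 CPM in clone 2, and 1.6 and 3.03 CPM in WT (-1.37 ± 0.459). The ubiquitin ligase gene Stub1 had -0.64 ± 0.239, and none of these 5 genes passed.

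Chaperones of other compartments were spread on both sides of 0. In clone 2 over WT, 0 of 19 endoplasmic reticulum chaperones, 0 of 10 mitochondrial chaperones and proteases and 0 of 8 subunits of the CCT chaperonin passed by edgeR, and at an unadjusted p under 0.05 there were 1, 1 and 0, all lower (6.17% of all genes). DESeq2 and limma-voom called 0 genes of these 3 lists there. Hyou1, an Hsp70 relative of the endoplasmic reticulum, had a log2 fold change of -0.99 ± 0.401, with 151 to 190.3 CPM in the KO libraries against 178 CPM in WT mouse 1 and 430.2 CPM in WT mouse 2. Lonp1, the protease of the mitochondrial matrix, was at 94.3 and 102 CPM in clone 1, 86.5 and 90.2 CPM in clone 2, and 122 and 220.2 CPM in WT (-0.95 ± 0.306 for clone 2 over WT). The medians were 0.01 for the endoplasmic reticulum, 0.07 for mitochondria and 0.18 for CCT.

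The summed level of immediate early genes, which are induced within minutes of handling, did not follow the Hspa1 order. These 20 genes summed to 5649 and 6191 CPM in clone 1, 6066 and 6563 CPM in clone 2, and 4602 and 7209 CPM in WT, with the WT libraries on either side of the KO libraries. Of the 20, 0 passed by edgeR in clone 2 over WT, with 3 higher and 0 lower at an unadjusted p under 0.05 (5.12% and 6.17% of all genes) and 0 by DESeq2 or limma-voom. Those 3 were Btg2 (0.88 ± 0.243), Dusp2 (0.74 ± 0.246) and Fos (0.63 ± 0.256), which encode an antiproliferative protein, a phosphatase of MAP kinases and a subunit of AP-1. Fos was at 1560.1 and 1847 CPM in clone 1, 1944 and 2123 CPM in clone 2, and 1147 and 1476 CPM in WT. At an unadjusted p above 0.05, the 3 genes with the smallest p on the lower side were Atf3 (-0.43 ± 0.203), Fosb (-0.90 ± 0.485) and Egr1 (-1.60 ± 0.912). Atf3, a stress-induced transcription factor, was at 329 and 313 CPM in clone 1, 261 and 275 CPM in clone 2, and 345 and 378 CPM in WT. It is the 1 gene of the 20 (5%) with the order of the pair, against 3.2% of all genes tested. For Egr1 the highest library was WT mouse 2 at 178 CPM, against 18.7 to 55.4 CPM in the other libraries. The part of tissue handling in the Hspa1 levels was not tested.

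Oxidative stress genes, a second stress programme, were compared in all 4 contrasts. Of 8 genes, 2 had a log2 fold change below 0 in clone 1 over WT (48.8% of all genes), 6 in clone 2 over WT (51.7%) and 3 in KO over WT (49.8%). Their medians were 0.28, -0.15 and 0.08 in that order. In clone 2 over clone 1, 8 of 8 had a log2 fold change below 0 (53% of all genes) with a median of -0.42, against -0.02 over all genes, and 0 passed by edgeR, DESeq2 or limma-voom, with 1 lower at an unadjusted p under 0.05 in edgeR (1.91% of all genes). Hmox1, which breaks down haem, was at 428 and 245 CPM in clone 1, 155 and 129 CPM in clone 2, and 266 and 238 CPM in WT. Its log2 fold change was -1.24 ± 0.311 for clone 2 over clone 1 (adjusted p by edgeR of 0.717). Clone 2 was lowest here too, but clone 1 was not between clone 2 and WT. Of the 8, 2 were lower in clone 2 over WT at an unadjusted p under 0.05 (6.17% of all genes), Hmox1 (-0.82 ± 0.309) and Nqo1 (-1.63 ± 0.616), and 0 passed after adjustment.

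**Figure D4:**
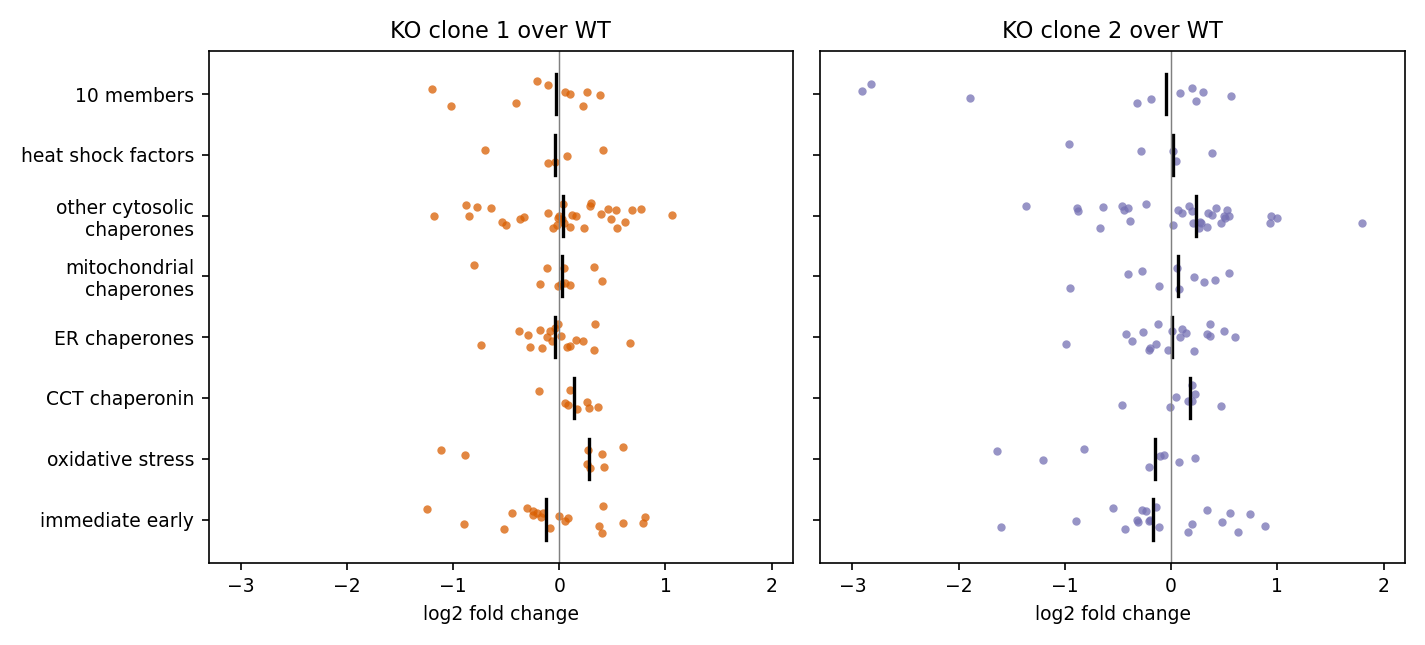
Log2 fold change (edgeR) of each tested gene in 8 gene lists, for KO clone 1 over WT and KO clone 2 over WT; each point is a gene and the black line is the median of the list. The lowest points among the 10 chaperones, at -2.91, -2.82 and -1.89 in clone 2, are Hspa1b, Hspa1a and Hspb1, and the medians of all lists lie within 0.28 of 0.

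Genes with the most similar pattern were found by the root-mean-square difference between log2 CPM, centred on each gene's own mean over the 6 libraries, and that of the sum, among 10234 genes of at least 5 CPM on average. A gene that did not vary would have a difference of 1.18. The 8 nearest were Fbln2 (0.518), Hyal1 (0.521), Gadd45a (0.542), Rhov (0.555), Capn6 (0.58), Mgarp (0.619), Trib3 (0.646) and Kirrel3 (0.649). Hspb1, at 0.631, was nearer than Trib3. Fbln2, an extracellular matrix gene of fibroblasts, was at 48.1 and 29.4 CPM in clone 1, 7.83 and 5.89 CPM in clone 2, and 48.2 and 61.4 CPM in WT, and is 1 of the 10 fibroblast markers, of which 5 were above and 5 below 0 in clone 2 over WT. Gadd45a, a growth arrest gene, was at 10.7 and 10.8 CPM in clone 1, 4.86 and 5.12 CPM in clone 2, and 15 and 23.2 CPM in WT. Trib3, a pseudokinase gene of the integrated stress response, was at 40.2 and 51 CPM in clone 1, 25.8 and 25.7 CPM in clone 2, and 62.6 and 74.4 CPM in WT. In these 3 genes clone 2 was lowest in both mice. The 8 were chosen for this pattern, so their values are a description with no test.

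**Figure D5:**
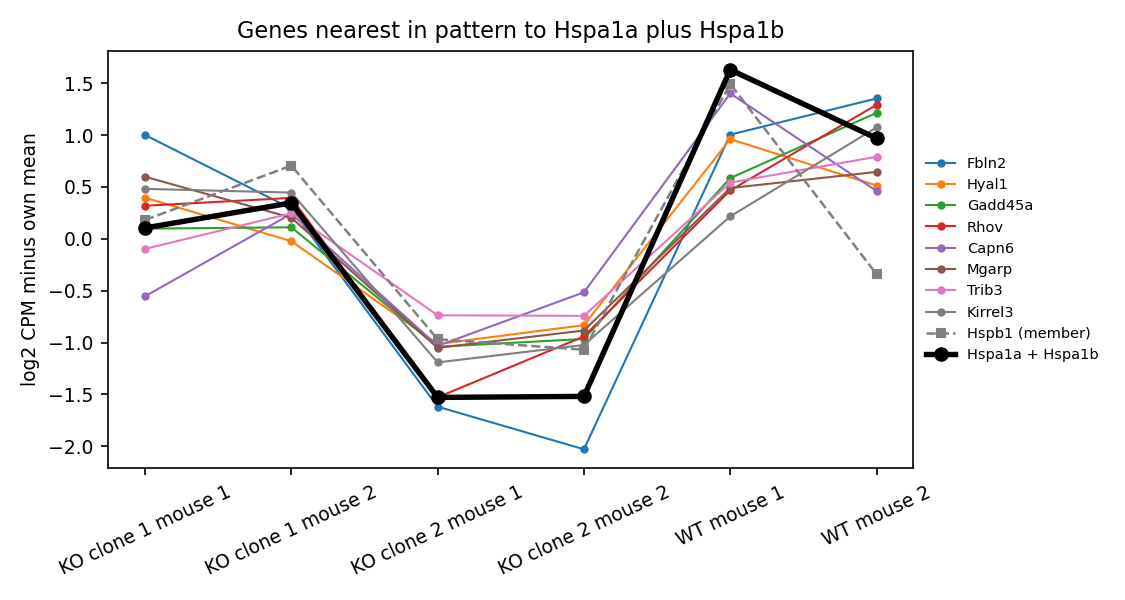
Log2 CPM of each gene minus its own mean over the 6 libraries, for the 8 genes nearest to Hspa1a plus Hspa1b (thick black), with Hspb1 dashed; lines join the libraries of a gene and carry no order. Both clone 2 libraries are the lowest for every gene shown except Capn6, and the pair is highest in WT mouse 1 whereas Fbln2 and Gadd45a are highest in WT mouse 2.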

How the data were processed

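Total RNA of sorted macrophages was sequenced after ribosomal RNA depletion with a TruSeq kit, per the labels' protocols. The authors deposited a table of unscaled estimated counts per gene symbol. The submitters' processing notes name Salmon 0.7.2 and the build mm10, and neither the transcript set nor the use of strand is stated. Of 21760 symbols, 20429 matched a GENCODE M21 name, and 0 columns were left unmapped. Estimated counts were rounded to whole numbers.

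Tests used edgeR 4.0.16 in R 4.3.3 by quasi-likelihood after filterByExpr (minimum count 10, total 15) and TMM factors, with Benjamini-Hochberg adjustment over 15560 genes and a threshold of 0.05. Clone contrasts came from 1 fit of 3 groups, and KO over WT from a fit of 2 genotypes in which mice sharing a clone count as separate. SE is the size of the log2 fold change divided by the square root of F. Replicates differed beyond counting noise (chi-square per degree of freedom of 65.9, 163 and 693 in clone 1, clone 2 and WT). The fit was tested on simulated data. The members and gene lists were chosen with earlier results of these data known. All members are named. Other genes are named from the lists by smallest unadjusted p in clone 2 over WT (up to 3 a direction, not all of them printed). Lists of 9 genes or fewer may be given in any part. Xkr8, Rn45s, Hsf1, Hsf2, Adgre1 and Csf1r were set by name, as were the 8 nearest by pattern. Col3a1 was named after its values were seen, as were the orders of genes over the 3 groups. Promoters came from RefSeq (GRCm38.p6). Alternatives were RLE factors, DESeq2 1.42.0, limma-voom (limma 3.58.1), no filter, at least 5 CPM in 2 libraries, no Rn45s, the mouse number as a block, leaving out each library and, chosen after seeing the data, library totals without TMM.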

Additional observations from a re-analysis of the deposited data

How the results depend on the processing

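Of 570 values for single members under these alternatives, 508 kept direction and side of the threshold, 32 kept direction and came to pass it, and 30 changed sign. No member passed in the main fit, so no call could be lost. The 32 include values in clone 2 over WT, from which nothing is read, and values from fits with 1 library left in a group. The sum of Hspa1a and Hspa1b was below 0 throughout. With DESeq2 it was -1.12 (clone 1 over WT), -1.74 (clone 2 over clone 1) and -1.74 (KO over WT) and passed in these, as it did with no filter in clone 2 over clone 1 (-1.75). It was -2.85 with either in clone 2 over WT, a description. Leaving out each library gave -1.43 to -0.73 (clone 1 over WT), -3.18 to -2.48 (clone 2 over WT), -1.87 to -1.63 (clone 2 over clone 1) and -2.10 to -1.35 (KO over WT). Members called numbered 1, 2 and 1 by DESeq2 in clone 1 over WT, clone 2 over clone 1 and KO over WT, and 2 in clone 2 over clone 1 with no filter (0.246% of all genes). Leaving out each library gave 0 to 3, 0 to 2 and 0 to 3 calls in that order. Without WT mouse 1, clone 1 over WT and KO over WT had 3 each, but 34.5% and 37.5% of all genes were then called; in clone 2 over clone 1, leaving out either WT mouse gave 2 (0.486% and 0.541% of all genes). Counts in clone 2 over WT were 2 by DESeq2, 2 with no filter, 1 with RLE factors and 0 to 6 leaving out each library (40.2% of all genes at 6), and nothing is read from them. Averaging both clones in the 3-group fit gave the sum -1.99 in KO over WT (edgeR adjusted p of 0.0921).

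Apart from Hspb1, the members that changed sign had values of at most 0.47 in size (Hspe1, KO over WT); Hspb1, at -0.97 in KO over WT and -0.41 in clone 1 over WT, changed sign without WT mouse 1. Leaving out each library, clone 1 over WT ran from -0.21 to 0.48 for Dnajb1, -0.14 to 0.68 for Hsp90aa1, -0.25 to 0.04 for Hsp90ab1, -1.05 to 0.82 for Hspb1, -0.30 to 0.35 for Hspd1 and -0.16 to 1.21 for Hspe1. Clone 2 over WT ran from -0.11 to 0.58 for Dnajb1, -0.13 to 0.69 for Hsp90aa1 and -0.10 to 0.28 for Hspd1. Clone 2 over clone 1 ran from -0.066 to 0.29 for Dnajb1, -0.17 to 0.24 for Hsp90aa1, -0.17 to 0.033 for Hsp90ab1, -0.15 to 0.25 for Hspa8, -0.26 to 0.39 for Hspd1 and -0.10 to 0.53 for Hspe1. KO over WT ran from -0.16 to 0.54 for Dnajb1, -0.13 to 0.68 for Hsp90aa1, -0.29 to 0.006 for Hsp90ab1, -1.61 to 0.26 for Hspb1, -0.11 to 0.26 for Hspd1 and -0.065 to 1.31 for Hspe1. Library totals without TMM, which moved the median of all genes by 0.145 (clone 1 over WT), 0.128 (clone 2 over WT), -0.026 (clone 2 over clone 1) and 0.134 (KO over WT), gave Hsp90ab1 0.086 in clone 1 over WT and 0.038 in KO over WT, and Hsp90aa1 -0.007 in clone 2 over clone 1, where the filter of 5 CPM gave -0.001. The cause was not tested.

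Same-numbered mice share only a number: their deviations correlated at -0.135 (WT and clone 1), 0.05 (WT and clone 2) and 0.197 (both clones). With the replicate block the sum was -1.09 in clone 1 over WT, -2.85 in clone 2 over WT, -1.76 in clone 2 over clone 1 and -1.72 in KO over WT, and 0 members were called in any contrast.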

Other observations

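Some ratios between members that work together set WT mouse 2 apart, and others did not. Hspe1 counts were 23.7% and 23.4% of Hspd1 counts in clone 1, 25.3% and 26.9% in clone 2, and 24% and 12% in WT, the last value being WT mouse 2. Hsp90aa1 counts were 78.5% and 90.3% of Hsp90ab1 counts in clone 1, 93.2% and 87.6% in clone 2, and 96.4% in WT mouse 1, against 44.5% in WT mouse 2. Hsph1 counts were 2.63% to 3.52% of Hspa8 counts in the KO libraries, 3.44% in WT mouse 1 and 5.08% in WT mouse 2. In these ratios WT mouse 1 lies within or near the KO libraries. Other ratios set WT mouse 1 apart as well. Dnajb1 counts were 1.97% to 2.15% of Hspa8 counts in the KO libraries, 2.54% in WT mouse 1 and 1.87% in WT mouse 2. Hsp90aa1 counts were 26.4% to 27.1% of Hspa8 counts in the KO libraries, 32.8% in WT mouse 1 and 22.2% in WT mouse 2. For the Hspa1 pair over Hspa8 or Dnajb1 both WT libraries lie above all KO libraries. WT mouse 2 is also the library with 24.6% of counts from Rn45s. The part of that share in these ratios was not tested.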
